A study of Mus musculus with 19 samples.

Results

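The genes described here are 7 Toll-like receptors (Tlr1, Tlr2, Tlr3, Tlr4, Tlr7, Tlr8 and Tlr9), the co-receptors Cd14 and Ly96, and the adaptor Myd88. They were matched by mouse symbol, and all 10 of 10 had a row among the 33919 gene identifiers of the deposited table, of which 29062 carried a symbol. The table holds RNA levels from 19 libraries of Kupffer cells, the macrophages that line the liver sinusoids, sorted by flow cytometry from female C57BL/6 mice. MCD_MoKCs (n = 7) and MCD_EmKCs (n = 6) came from mice fed an MCD diet for 4 weeks, and Chow_EmKCs (n = 6) came from chow-fed mice. MCD commonly stands for a methionine- and choline-deficient diet, which causes steatohepatitis in mice, and EmKCs and MoKCs for Kupffer cells of embryonic and of monocyte origin. EmKCs were gated as CLEC2+ TIMD4+ and MoKCs as CLEC2+ TIMD4-, and all 3 groups shared the collagenase D digestion, the sort and the Smartseq amplification of mRNA. The series title names NASH and Kupffer cells of different origins, so the 3 comparisons ask how the sorted subset and the diet relate to expression. The sources used here give neither ages nor the number of animals behind a library, and MCD_MoKCs differ from Chow_EmKCs in both diet and gate.

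Toll-like receptors are membrane proteins that bind molecules typical of microbes. Tlr1, Tlr2, Tlr4, Tlr5 and Tlr6 act mainly at the cell surface on lipopeptides, lipopolysaccharide and flagellin, while Tlr3, Tlr7, Tlr8, Tlr9 and, in mice, Tlr11, Tlr12 and Tlr13 sit in endosomes. Cd14 passes lipopolysaccharide to the complex of Tlr4 with Ly96, also called MD-2. All of these receptors except Tlr3 signal through Myd88, which recruits IRAK kinases and leads to NF-kappaB and inflammatory gene expression. Kupffer cells are known for taking up gut-derived bacterial products from portal blood.

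Recovered reads per library ran between 11642240 and 30983487, with 14643 to 16847 genes detected. The 12 Kupffer cell markers summed to 8167 to 11314 RPM (reads scaled to the library total) in MCD_MoKCs, 20102 to 26084 in MCD_EmKCs and 27501 to 34789 in Chow_EmKCs. Every library thus held these markers, at unequal levels. The list includes Timd4 and Clec1b, the genes of the gated proteins TIMD4 and CLEC2, so the sums are not independent of the sort. The 8 monocyte markers summed to 412 to 580 RPM in MCD_MoKCs, 150 to 293 in MCD_EmKCs, where Ly6c2 had no read, and 218 to 273 in Chow_EmKCs. The 9 T and NK cell markers summed to 17.1 to 33.9 RPM in MCD_MoKCs, above every library of the other groups, 0.573 to 9.64 in MCD_EmKCs, where Trac had no read, and 2.78 to 5.80 in Chow_EmKCs, where Ncr1 had none. The 8 neutrophil markers summed to 6.35 to 132 RPM in MCD_MoKCs, 2.12 to 11.5 in MCD_EmKCs and 0.829 to 8.47 in Chow_EmKCs, with no read of Ngp in either EmKCs group. Of 14 listed cell isolation response genes, 12 had a symbol match. These 12 summed to 23027 to 33027 RPM in MCD_MoKCs, 28127 to 35287 in MCD_EmKCs and 19544 to 27361 in Chow_EmKCs. Hepatocyte markers summed to 27.2 to 62.1 RPM in MCD_MoKCs, 25.7 to 149 in MCD_EmKCs and 201 to 633 in Chow_EmKCs. The 8 sinusoidal endothelium markers summed to 232 to 698 RPM in MCD_MoKCs, 427 to 660 in MCD_EmKCs and 510 to 619 in Chow_EmKCs. MCD_MoKCs fell into libraries 1 to 3, with 0.534% to 0.729% of reads on mitochondrial genes, and libraries 4 to 7, with 0.244% to 0.359%. This share was 0.155% to 0.317% in MCD_EmKCs and 0.511% to 1.05% in Chow_EmKCs, without overlap between these 2 groups. The part of these differences in the results below was not tested.

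Of the 10 genes, 9 passed the filter of at least 10 normalised reads in at least 6 libraries, and Tlr9 did not. Differences were tested with limma on log2(normalised reads + 1) over all 14875 genes that passed, with Benjamini-Hochberg adjusted p-values and a threshold of 0.05. Tlr1 and Cd14 were the genes of the set that passed. Tlr1 and Cd14 were both higher in MCD_MoKCs than in Chow_EmKCs, that is 2 of 9 tested genes, where 16.8% of all tested genes were called. In MCD_MoKCs against MCD_EmKCs Cd14 alone passed, 1 of 9, where 10.5% of all tested genes were called. In MCD_EmKCs against Chow_EmKCs Tlr1 alone passed, 1 of 9, where 4.08% were called. No gene of the set was called lower by limma, edgeR or DESeq2, where limma called 8.08% of all tested genes lower in MCD_MoKCs against Chow_EmKCs, 4.9% in MCD_MoKCs against MCD_EmKCs and 1.58% in MCD_EmKCs against Chow_EmKCs. At an unadjusted limma p under 0.05, Tlr3 was lower in MCD_MoKCs against each of the other groups. With 9 genes, each of these counts is close to the share among all genes. The median log2 fold change of the 9 genes was 0.23 for MCD_MoKCs against Chow_EmKCs, 0.06 for MCD_MoKCs against MCD_EmKCs and -0.07 for MCD_EmKCs against Chow_EmKCs, beside -0.01, 0.02 and -0.04 over all tested genes. The 3 comparisons share samples pairwise, so they are not independent. The labels do not say that libraries came from separate animals, so the p-values measure the spread between these samples, and in sorted bulk samples fewer cells of a type and less RNA per cell cannot be told apart.

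**Figure D1:**
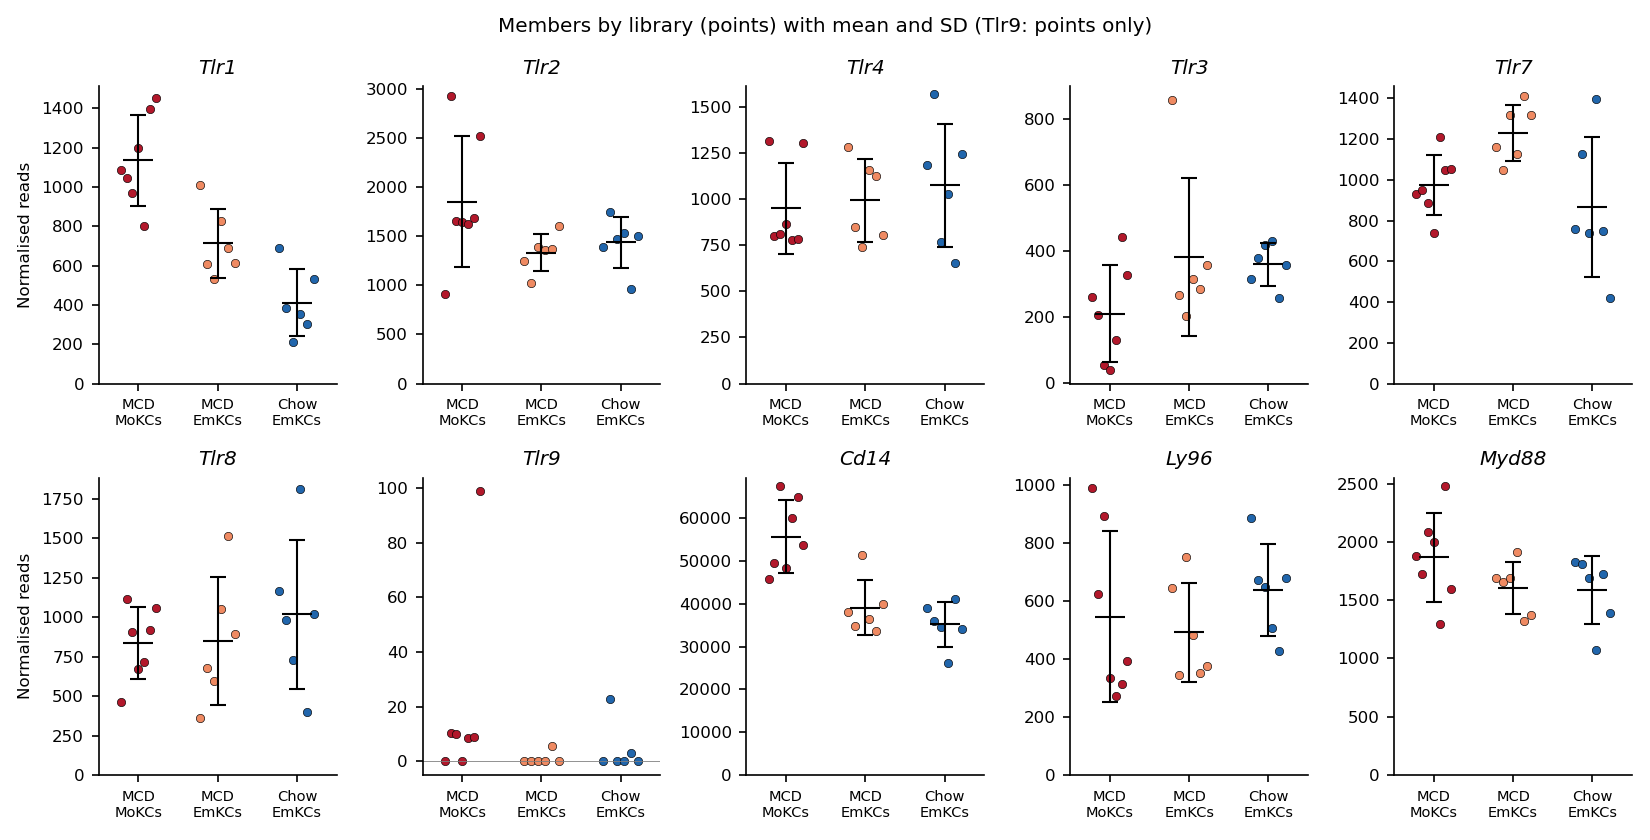
Normalised reads (vertical axes, linear, from 0) of the 10 genes in each library, by group; points are libraries, and black bars give the mean and SD except for Tlr9. Tlr1 and Cd14 show MCD_MoKCs libraries that all lie above the Chow_EmKCs libraries, whereas the groups overlap for the other 8 genes. The share of all genes without overlap was not counted, and 16.8% of all tested genes were called by limma in MCD_MoKCs against Chow_EmKCs.

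Short stretches of promoter with a motif match are shown for Tlr1 and Tlr13, which moved together, and for Tlr2, the partner of Tlr1. They are also shown for Tlr3, Tlr8 and Tlr9. Of these genes Tlr1 and Tlr13 had a called change, Tlr2, Tlr3 and Tlr8 passed no test, and Tlr9 was not tested. Promoter windows from RefSeq (build GRCm38.p6) were matched for 6 of the 10 genes, namely Tlr1, Tlr2, Tlr3, Tlr8, Tlr9 and Myd88, and not for Tlr4, Tlr7, Cd14 and Ly96. The 250 bases before each RefSeq start were searched on both strands for the PU box GAGGAA, the core read by the macrophage factor PU.1, and for the NF-kappaB consensus site. A PU box stood in 23.3% and an NF-kappaB consensus in 7.25% of all 32851 windows. Capitals mark the match, read 5′ to 3′ on the strand of the gene.
Tlr1 (chr5:64933568-64933589, minus strand): aaatgttgGAGGAAgtaggagc
Tlr13 (chrX:106143184-106143205, plus strand): aaagagaaGAGGAAggaaatgt
Tlr8 (chrX:167264393-167264414, minus strand): aatgacttTTCCTCtgaattca
Tlr9 (chr9:106222478-106222499, plus strand): agtggaaaGAGGAAggggttga
Tlr2 (chr3:83841763-83841789, minus strand): ggacacctGGGGAATTCCCacacggag
Tlr3 (chr8:45410574-45410599, minus strand): ttgtttctGGGAGTTTCCtgcttttg
The PU box began 23 bases before the start of Tlr1 and 83 bases before that of Tlr13, and the Tlr8 match lies on the opposite strand. The Tlr2 stretch holds 3 overlapping NF-kappaB matches beginning at 173 bases, and the Tlr3 match begins 211 bases before the RefSeq start. In GENCODE, used here for exon lengths, Tlr3 spans chr8:45395665-45411080, so its match lies inside that gene model. Neither motif matched in the windows of Myd88, Tlr5, Tlr6 or Tlr12 or in the second RefSeq window of Tlr1. A PU box also stood in the window of Tlr11, which is not shown. These letters describe the windows and were not tested as sites.

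Tlr1, which pairs with Tlr2 to bind triacylated lipopeptides, had the highest log2 fold change of the 9 tested genes in MCD_MoKCs against Chow_EmKCs. The gene (ENSMUSG00000044827, chr5:64924679-64933563, mm10, minus strand) had a lowest, median and highest level of 801, 1084 and 1451 normalised reads in MCD_MoKCs. It had 533, 650 and 1009 normalised reads in MCD_EmKCs, and 213, 368 and 691 in Chow_EmKCs. All 7 MCD_MoKCs libraries lay above the highest Chow_EmKCs library, while 5 of 7 lay above the highest MCD_EmKCs library and 2 of 6 MCD_EmKCs libraries above the highest Chow_EmKCs library. The means were 1135 ± 232 normalised reads in MCD_MoKCs (SD, n = 7), 713 ± 176 in MCD_EmKCs (n = 6) and 412 ± 172 in Chow_EmKCs (n = 6).

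The log2 difference of Tlr1 between MCD_MoKCs and Chow_EmKCs was 1.54, with an SE of 0.24 and an adjusted p of 3.06e-05 in limma. Column names of the table carry library numbers, which fall into a set up to 33 and a set from 37. The log2 fold change was 1.40 among the libraries with numbers up to 33 (adjusted p = 0.0157) and 1.89 among those from 37 (adjusted p = 0.0018). In MCD_MoKCs against MCD_EmKCs the difference was 0.68 (SE 0.24, adjusted p = 0.0710) and missed the threshold. It passed with Chow_EmKCs 1 left out (0.0496), Chow_EmKCs 3 left out (0.0465) or MCD_EmKCs 1 left out (0.0449). In MCD_EmKCs against Chow_EmKCs Tlr1 was higher by 0.86 (SE 0.25), with an adjusted p of 0.0483 just under the threshold. That call held without Chow_EmKCs 1, Chow_EmKCs 6, MCD_EmKCs 3 or MCD_MoKCs 5 and was lost when any of the other 15 libraries was left out, with adjusted p between 0.0143 and 0.132 over all 19. Within the 2 column-number sets it was 0.85 (adjusted p = 0.359) and 0.87 (adjusted p = 0.150). The order of Tlr1 was therefore MCD_MoKCs, MCD_EmKCs, Chow_EmKCs, with the first and last separated and the middle group not firmly separated from either.

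Tlr2, the shared partner of Tlr1 and Tlr6, passed no test. Its lowest, median and highest levels were 909, 1653 and 2931 normalised reads in MCD_MoKCs, 1023, 1363 and 1609 in MCD_EmKCs and 968, 1488 and 1751 in Chow_EmKCs. One MCD_MoKCs library lay below every MCD_EmKCs library and 6 lay above every one, so the MCD_MoKCs libraries were the most spread. The log2 fold change was 0.40 (95% interval -0.03 to 0.83, adjusted p = 0.251) for MCD_MoKCs against MCD_EmKCs and 0.30 (-0.13 to 0.73, adjusted p = 0.372) for MCD_MoKCs against Chow_EmKCs. For MCD_EmKCs against Chow_EmKCs it was -0.10 (-0.54 to 0.35, adjusted p = 0.878). Per kb of exon, the level of Tlr2 was on average 1.85 ± 0.70 times that of Tlr1 in MCD_MoKCs, 2.18 ± 0.62 times in MCD_EmKCs and 4.43 ± 1.92 times in Chow_EmKCs (SD over libraries). This ratio is a description of the 2 genes together and was not tested.

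Tlr4, the lipopolysaccharide receptor, showed no difference that passed the test. It had a lowest, median and highest level of 776, 811 and 1315 normalised reads in MCD_MoKCs, 740, 988 and 1283 in MCD_EmKCs and 655, 1107 and 1568 in Chow_EmKCs. The 3 ranges overlapped, and 2 of 7 MCD_MoKCs libraries stood above the other 5 at 1305 and 1315. The log2 fold change was -0.07 (95% interval -0.51 to 0.37, adjusted p = 0.893) for MCD_MoKCs against MCD_EmKCs. It was -0.15 (-0.60 to 0.29, adjusted p = 0.709) for MCD_MoKCs against Chow_EmKCs and -0.08 (-0.54 to 0.38, adjusted p = 0.904) for MCD_EmKCs against Chow_EmKCs.

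Cd14 differed while its receptor Tlr4 did not pass the test. Its lowest, median and highest levels were 45870, 53766 and 67486 normalised reads in MCD_MoKCs. They were 33727, 37285 and 51419 in MCD_EmKCs and 26081, 35338 and 41246 in Chow_EmKCs. All 7 MCD_MoKCs libraries exceeded all Chow_EmKCs libraries, and 4 of 7 exceeded the highest MCD_EmKCs library, which was MCD_EmKCs 3. The means were 55743 ± 8547 in MCD_MoKCs (SD, n = 7), 39082 ± 6439 in MCD_EmKCs (n = 6) and 35214 ± 5242 in Chow_EmKCs (n = 6).

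Cd14 was higher in MCD_MoKCs than in MCD_EmKCs by a log2 fold change of 0.51 (SE 0.12, adjusted p = 0.0058), or 1.43-fold. It was higher in MCD_MoKCs than in Chow_EmKCs by 0.66 (SE 0.12, adjusted p = 2.59e-04), or 1.58-fold. In MCD_EmKCs against Chow_EmKCs it differed by 0.15 (95% interval -0.11 to 0.41, adjusted p = 0.618). The difference from Chow_EmKCs held within the library numbers up to 33 (0.55, adjusted p = 0.0372) and from 37 (0.83, adjusted p = 0.0113). That from MCD_EmKCs kept its direction in both sets but missed the threshold, at 0.39 (adjusted p = 0.174) and 0.69 (adjusted p = 0.0535), and also with MCD_MoKCs 1 to 3 alone at 0.47 (adjusted p = 0.0648). Cd14 is also expressed by monocytes, whose marker sum was higher in MCD_MoKCs as given above. Of the 8 monocyte markers, 4 were called higher and 1, Plac8, lower in MCD_MoKCs against Chow_EmKCs, beside 8.68% and 8.08% of all tested genes. Against MCD_EmKCs 5 were called higher and 0 lower, beside 5.64% and 4.9%. The part of monocytes in the Cd14 difference was not tested.

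Ly96, the Tlr4 partner that binds lipid A, separated libraries within MCD_MoKCs rather than the groups. MCD_MoKCs 1 to 3 had 624 to 987 normalised reads and MCD_MoKCs 4 to 7 had 273 to 393, without overlap, along the same division as the mitochondrial share. The lowest, median and highest levels were 273, 393 and 987 in MCD_MoKCs, 344, 428 and 751 in MCD_EmKCs and 428, 659 and 885 in Chow_EmKCs. No comparison passed, with log2 fold changes of 0.05 (95% interval -0.57 to 0.66, adjusted p = 0.955) for MCD_MoKCs against MCD_EmKCs, -0.36 (-0.97 to 0.26, adjusted p = 0.489) for MCD_MoKCs against Chow_EmKCs and -0.40 (-1.04 to 0.24, adjusted p = 0.576) for MCD_EmKCs against Chow_EmKCs. Against Chow_EmKCs the log2 fold change was 0.40 (adjusted p = 0.439) with MCD_MoKCs 1 to 3 alone and -0.93 (adjusted p = 0.0248) with MCD_MoKCs 4 to 7 alone, so its sign turned with the libraries used. The part of mitochondrial RNA in this was not tested.

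**Figure D2:**
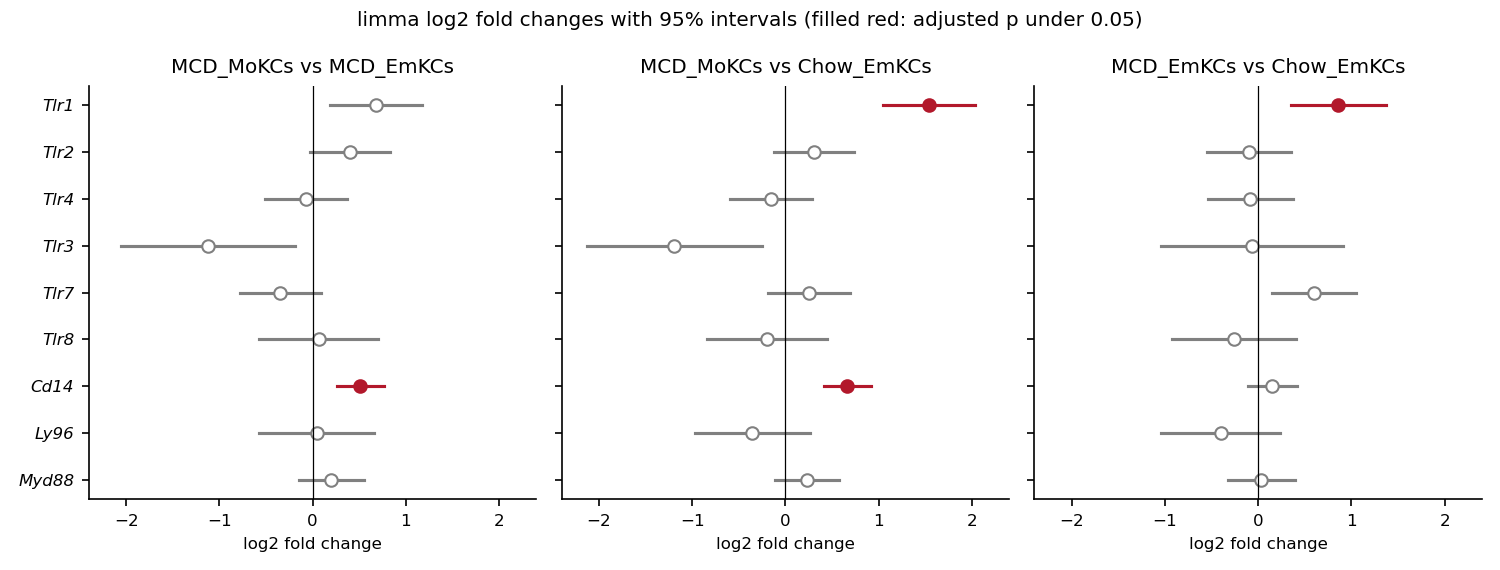
limma log2 fold changes (horizontal axis) of the 9 tested genes in the 3 comparisons, the first-named group over the second; lines are 95% intervals and filled red points have an adjusted p under 0.05. Tlr1 and Cd14 are filled against Chow_EmKCs, Cd14 alone against MCD_EmKCs, and Tlr1 alone in the comparison of EmKCs.

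Among the endosomal receptors, Tlr3, which binds double-stranded RNA and signals through Ticam1, was low and variable. Its lowest, median and highest levels were 37.98, 206 and 442 normalised reads in MCD_MoKCs, 202, 299 and 859 in MCD_EmKCs and 257, 368 and 431 in Chow_EmKCs. In MCD_MoKCs, 4 of 7 libraries lay below every Chow_EmKCs library and 1 lay above every one. The log2 fold change was -1.19 (95% interval -2.13 to -0.25, adjusted p = 0.0766) for MCD_MoKCs against Chow_EmKCs and -1.12 (-2.06 to -0.18, adjusted p = 0.125) for MCD_MoKCs against MCD_EmKCs. For MCD_EmKCs against Chow_EmKCs it was -0.07 (-1.04 to 0.90, adjusted p = 0.966). The comparison with Chow_EmKCs passed with MCD_MoKCs 6 left out (-1.44, adjusted p = 0.0255) or MCD_MoKCs 7 left out (-1.37, adjusted p = 0.0445), and that with MCD_EmKCs passed without MCD_MoKCs 6 (-1.37, adjusted p = 0.0471). Among the libraries from column number 37 the sign turned, to 0.16 and 0.26 against Chow_EmKCs and MCD_EmKCs. An antisense gene, Gm45542, covers 381 exon bases of Tlr3, and the sources used here do not say whether counting used strand.

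Tlr7 and Tlr8, receptors for single-stranded RNA, lie 40.6 kb apart on the X chromosome and did not pass any test. Tlr7 had a lowest, median and highest level of 739, 948 and 1209 normalised reads in MCD_MoKCs, 1047, 1239 and 1411 in MCD_EmKCs and 421, 754 and 1397 in Chow_EmKCs. The MCD_EmKCs libraries were the least spread, and the wide Chow_EmKCs range covered nearly all of both other groups. The log2 fold change of Tlr7 was 0.60 (95% interval 0.15 to 1.05, adjusted p = 0.144) for MCD_EmKCs against Chow_EmKCs, and it passed only with Chow_EmKCs 4, the highest library of its group, left out (0.75, adjusted p = 0.0409). It was -0.34 (-0.78 to 0.09, adjusted p = 0.355) for MCD_MoKCs against MCD_EmKCs and 0.25 (-0.18 to 0.69, adjusted p = 0.486) for MCD_MoKCs against Chow_EmKCs.

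Tlr8 had a lowest, median and highest level of 464, 906 and 1115 normalised reads in MCD_MoKCs, 364, 785 and 1512 in MCD_EmKCs and 402, 1002 and 1813 in Chow_EmKCs. The groups overlapped throughout. Its fold change on the log2 scale was 0.06 (95% interval -0.58 to 0.70, adjusted p = 0.936) for MCD_MoKCs against MCD_EmKCs, -0.20 (-0.84 to 0.44, adjusted p = 0.743) for MCD_MoKCs against Chow_EmKCs and -0.26 (-0.93 to 0.40, adjusted p = 0.755) for MCD_EmKCs against Chow_EmKCs. Per kb of exon, the Tlr8 level was on average 0.989 ± 0.275 times that of Tlr7 in MCD_MoKCs, 0.777 ± 0.324 times in MCD_EmKCs and 1.45 ± 0.749 times in Chow_EmKCs (SD over libraries). The neighbours thus stood at like levels in all groups, with wide spread.

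Tlr9, the receptor for unmethylated CpG DNA, was at or near the detection limit in most libraries. No read was found in 2 of 7 MCD_MoKCs libraries, 5 of 6 MCD_EmKCs libraries and 4 of 6 Chow_EmKCs libraries. A count of 0 allows up to 3 reads, or 1.73 to 4.99 normalised reads in MCD_MoKCs, 1.90 to 3.88 in MCD_EmKCs and 1.86 to 3.73 in Chow_EmKCs, for counting error only. The remaining libraries had 8.45 to 10.3 normalised reads in 4 MCD_MoKCs libraries and 98.9 in MCD_MoKCs 7, 5.84 in MCD_EmKCs 5, and 3.12 and 23.0 in 2 Chow_EmKCs libraries. Plasmacytoid dendritic cells and B cells are known for expressing Tlr9. The 7 markers of plasmacytoid dendritic cells, with none at 0 in any group, summed to 162 to 240 RPM in MCD_MoKCs, 141 to 185 in MCD_EmKCs and 189 to 288 in Chow_EmKCs. These sums were mostly Bst2 and Tcf4, and the other 5 markers, separated after their values were seen, summed to 12.0 to 33.4 RPM in MCD_MoKCs, 2.19 to 9.001 in MCD_EmKCs and 2.36 to 11.8 in Chow_EmKCs. The sum of the 5 markers was thus higher in every MCD_MoKCs library than in any other. Of the single markers only Runx2 did not overlap, with at least 151 normalised reads in MCD_MoKCs. It had at most 148 in Chow_EmKCs and at most 92.6 in MCD_EmKCs. The remaining single markers overlapped. Ccr9 was highest in Chow_EmKCs 3, at 47.2 normalised reads. Siglech was at 27.9 in MCD_MoKCs 6 and at 63.4 in MCD_EmKCs 4. The part of such cells in the Tlr9 reads was not tested. Siglech, a surface lectin of plasmacytoid dendritic cells, averaged 108 ± 49.7 normalised reads in MCD_MoKCs, 30.2 ± 21.95 in MCD_EmKCs and 7.91 ± 10.3 in Chow_EmKCs (SD, n = 7, 6 and 6). MCD_MoKCs 7, the library with most Tlr9, had a sum over the 7 markers of 189 and 143 normalised reads of Siglech, both within its group, and its B cell marker sum of 20.8 was the lowest of MCD_MoKCs, where the 6 markers summed to 20.8 to 41.6. B cell markers summed to 8.92 to 28.3 in MCD_EmKCs and 12.1 to 33.1 in Chow_EmKCs.

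Myd88, the adaptor, passed no test. Its lowest, median and highest levels were 1298, 1878 and 2481 normalised reads in MCD_MoKCs, 1318, 1673 and 1912 in MCD_EmKCs and 1076, 1708 and 1823 in Chow_EmKCs. In MCD_MoKCs, 4 of 7 libraries lay above every Chow_EmKCs library and the other 3 lay within its range. On the log2 scale the change was 0.20 (95% interval -0.14 to 0.55, adjusted p = 0.521) for MCD_MoKCs against MCD_EmKCs, 0.23 (-0.11 to 0.58, adjusted p = 0.406) for MCD_MoKCs against Chow_EmKCs and 0.03 (-0.33 to 0.39, adjusted p = 0.960) for MCD_EmKCs against Chow_EmKCs. Myd88 shares 290 exon bases with Acaa1a, an oppositely oriented peroxisomal gene at 2540 ± 212 normalised reads in MCD_MoKCs (SD, n = 7), 2398 ± 280 in MCD_EmKCs (n = 6) and 2509 ± 402 in Chow_EmKCs (n = 6). Reads from the shared stretch cannot be told apart without strand. None of the 50-base words of Tlr2, Tlr7, Tlr8, Tlr9, Cd14 or Ly96 occurred in another gene, and 1.77% of those of Tlr1 and 0.216% of those of Tlr4 did.

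Levels were compared between genes per kb of exon. Cd14 came first in every group, at 32184 ± 4935 normalised reads per kb in MCD_MoKCs, 22565 ± 3717 in MCD_EmKCs and 20331 ± 3027 in Chow_EmKCs (SD). The next level was 724 ± 147 per kb for Myd88 in MCD_MoKCs, 623 ± 86.6 for Myd88 in MCD_EmKCs and 623 ± 155 for Ly96 in Chow_EmKCs. The mean ratio of Cd14 to Tlr4 levels per kb was 201 ± 63.4 in MCD_MoKCs, 134 ± 50.2 in MCD_EmKCs and 116 ± 49.2 in Chow_EmKCs. Behind these, Tlr2 was at 615 ± 221 per kb in MCD_MoKCs, 443 ± 63.8 in MCD_EmKCs and 477 ± 86.1 in Chow_EmKCs. Tlr1 was at 339 ± 69.4 per kb in MCD_MoKCs, 213 ± 52.5 in MCD_EmKCs and 123 ± 51.4 in Chow_EmKCs. Tlr7, Tlr8 and Tlr4 lay between 171 and 301 per kb in all groups. Of the neighbours in the order of the 10 genes in MCD_MoKCs, Myd88 and Tlr2, Tlr2 and Ly96, and Tlr7 and Tlr8 differed by less than the smaller SD of the pair, and Ly96 and Tlr1, and Tlr8 and Tlr4, by less than the larger one. Tlr3 lay at 40.0 ± 28.3 per kb in MCD_MoKCs, 73.0 ± 46.1 in MCD_EmKCs and 68.9 ± 12.5 in Chow_EmKCs, and Tlr9 was the lowest of the 10 genes in all 3 groups.

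**Figure D3:**
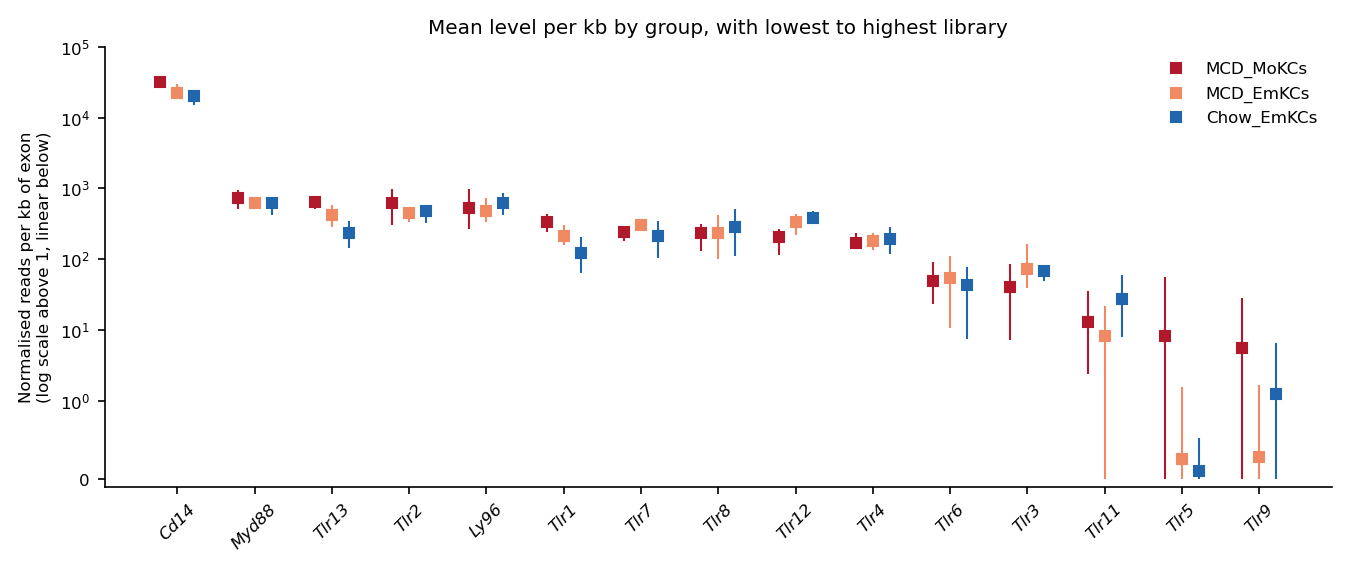
Mean normalised reads per kb of exon (vertical axis, log scale above 1 and linear below) of the 10 genes and the other 5 mouse Toll-like receptors, by group; squares are means and lines run from the lowest to the highest library. Cd14 lies at 20331 to 32184 per kb, and Tlr9 and Tlr5 are near 0.

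The other 5 mouse Toll-like receptors were looked at as a list, and Tlr5, near 0, did not pass the filter. Tlr13, which detects bacterial ribosomal RNA, had a lowest, median and highest level of 2231, 2693 and 3413 normalised reads in MCD_MoKCs, 1229, 1734 and 2519 in MCD_EmKCs and 628, 952 and 1488 in Chow_EmKCs. Every MCD_MoKCs library lay above every Chow_EmKCs library. Tlr13 was higher in MCD_MoKCs than in Chow_EmKCs by a log2 fold change of 1.496 (SE 0.20, adjusted p = 4.43e-06) and in MCD_EmKCs than in Chow_EmKCs by 0.88 (SE 0.21, adjusted p = 0.0140). The second call was not reached within the libraries numbered up to 33 (0.74, adjusted p = 0.289) or from 37 (1.02, adjusted p = 0.0794). MCD_MoKCs against MCD_EmKCs gave 0.61 (SE 0.20, adjusted p = 0.0527).

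Tlr12, a mouse receptor for profilin of protozoa, went the other way. Its lowest, median and highest levels were 367, 714 and 853 normalised reads in MCD_MoKCs, 709, 1109 and 1378 in MCD_EmKCs and 1072, 1176 and 1530 in Chow_EmKCs. All MCD_MoKCs libraries lay below all Chow_EmKCs libraries. Tlr12 was lower in MCD_MoKCs than in Chow_EmKCs, with a log2 fold change of -0.96 (SE 0.21, adjusted p = 0.0014), and lower than in MCD_EmKCs, at -0.73 (SE 0.21, adjusted p = 0.0227). The first call was lost within the libraries numbered up to 33 (adjusted p = 0.0632). The second was lost without MCD_EmKCs 2 (adjusted p = 0.0607), MCD_EmKCs 5 (0.0540), MCD_MoKCs 5 (0.0505) or MCD_MoKCs 7 (0.0514), within both column-number sets (0.141 and 0.216) and with MCD_MoKCs 1 to 3 alone (0.187).

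Tlr6, the other partner of Tlr2, averaged 183 ± 87.5 normalised reads in MCD_MoKCs (SD, n = 7), 204 ± 141 in MCD_EmKCs (n = 6) and 161 ± 96.4 in Chow_EmKCs (n = 6) and passed no test. It lies 18.5 kb from Tlr1 on chromosome 5. Tlr11, also a profilin receptor, averaged 42.9 ± 35.9 normalised reads in MCD_MoKCs, 26.9 ± 25.6 in MCD_EmKCs and 88.1 ± 61.7 in Chow_EmKCs and passed none either. Tlr5, the flagellin receptor, had 264 normalised reads in MCD_MoKCs 3 and at most 5.63 in the other MCD_MoKCs libraries, 7.50 in MCD_EmKCs and 2.52 in Chow_EmKCs.

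**Figure D4:**
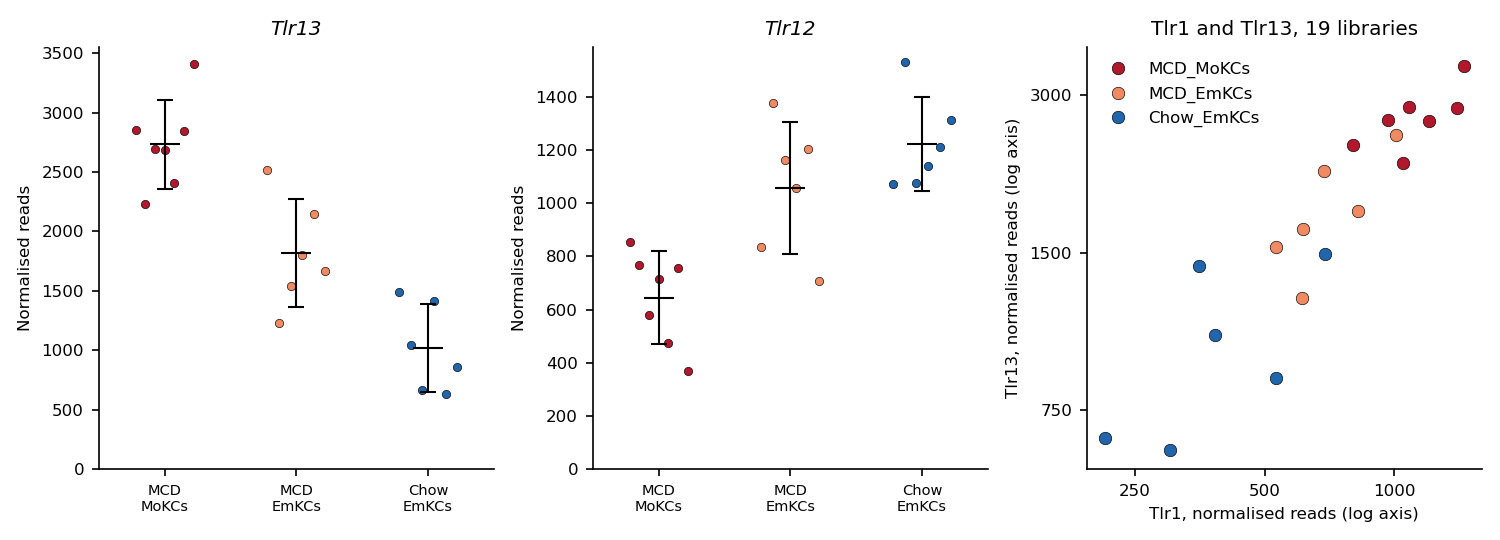
Normalised reads of Tlr13 and Tlr12 by library (left and middle, linear axes from 0, with mean and SD) and of Tlr13 against Tlr1 over 19 libraries (right, both axes logarithmic). Tlr13 shows MCD_MoKCs libraries above, and Tlr12 below, all Chow_EmKCs libraries.

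Genes most like a member in pattern were found by Pearson's r of log2(normalised reads + 1) over all 19 libraries, for the 3 members with the smallest limma F-test p over the groups. These r values follow group means to a large part and are given as a description. Tlr1 was most like Tlr13 (r = 0.92) and Stap1, a signalling adaptor (r = 0.91). After removal of group means, r was 0.69 with Tlr13 and 0.68 with Stap1. Stap1 averaged 492 ± 149 normalised reads in MCD_MoKCs, 262 ± 63.6 in MCD_EmKCs and 63.5 ± 32.3 in Chow_EmKCs. Cd14 was most like Slfn2, a Schlafen family gene (r = 0.93, 0.81 within groups), and Nfkbib, which encodes an inhibitor of NF-kappaB (r = 0.91, 0.71 within groups). Nfkbib averaged 2532 ± 276 normalised reads in MCD_MoKCs, 1732 ± 228 in MCD_EmKCs and 1440 ± 323 in Chow_EmKCs. Tlr3 was most like Aasdh (r = 0.81) and Ercc2, a helicase subunit of a general transcription factor (r = 0.81).

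Genes that Toll-like receptor signalling is known to induce were also examined. Of 14 tested secreted outputs, 12 rose in MCD_MoKCs against Chow_EmKCs, 9 in MCD_MoKCs against MCD_EmKCs and 8 in MCD_EmKCs against Chow_EmKCs, and none fell by limma, edgeR or DESeq2 (1 was lower at an unadjusted limma p under 0.05, in MCD_MoKCs against MCD_EmKCs). The share of all genes called higher was 8.68%, 5.64% and 2.5% in these 3 comparisons. The median log2 fold change of the list was 2.501, 1.07 and 1.22, beside -0.01, 0.02 and -0.04 over all tested genes. When libraries were left out in turn, the counts ran from 11 to 13, 7 to 9 and 6 to 9. These genes are also induced by other signals and made by other cells. The marker sums of monocytes, T and NK cells and neutrophils, given above, were also higher in MCD_MoKCs, those of monocytes and of T and NK cells without overlap, and the sum of isolation-response genes was highest in MCD_EmKCs by its median; their part in the rise was not tested.

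Tnf, a central inflammatory cytokine, had a lowest, median and highest level of 6680, 8509 and 10858 normalised reads in MCD_MoKCs, 3113, 3787 and 4884 in MCD_EmKCs and 601, 874 and 1858 in Chow_EmKCs. No group overlapped another. Its log2 fold change was 3.12 (SE 0.20, adjusted p = 6.18e-12) for MCD_MoKCs against Chow_EmKCs, 1.20 (SE 0.20, adjusted p = 1.40e-04) for MCD_MoKCs against MCD_EmKCs and 1.92 (SE 0.21, adjusted p = 8.43e-07) for MCD_EmKCs against Chow_EmKCs. The chemokine Ccl4 rose by 2.86 (SE 0.16, adjusted p = 3.47e-13), 1.43 (SE 0.16, adjusted p = 3.27e-07) and 1.43 (SE 0.16, adjusted p = 2.07e-06) in the same order of comparisons. Cxcl2, a chemokine that attracts neutrophils, rose by 2.15 (SE 0.13, adjusted p = 1.62e-12), 0.94 (SE 0.13, adjusted p = 9.24e-06) and 1.21 (SE 0.13, adjusted p = 1.08e-06).

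**Figure D5:**
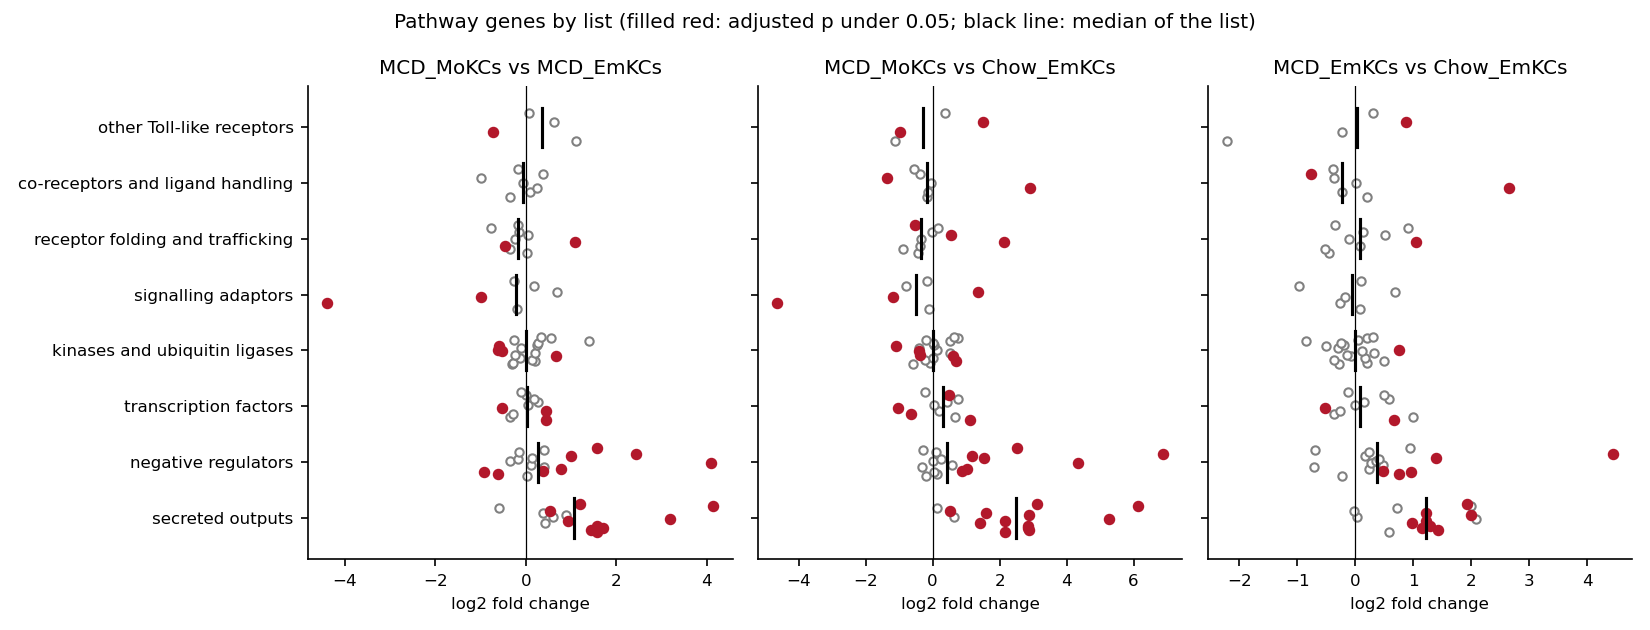
limma log2 fold changes (horizontal axes) of the tested genes of 8 pathway lists in 3 comparisons, the first-named group over the second; filled red points have an adjusted p under 0.05 and black lines are list medians. Secreted outputs and negative regulators hold the most filled points to the right of 0.

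Of 16 tested negative regulators, 7 rose and none fell in MCD_MoKCs against Chow_EmKCs (limma; 0 also at an unadjusted p under 0.05 and by edgeR and DESeq2), beside 8.68% of all tested genes higher and 8.08% lower. In MCD_MoKCs against MCD_EmKCs 6 rose and 2, Irak3 and Dusp1, fell, beside 5.64% and 4.9% of all genes, and in MCD_EmKCs against Chow_EmKCs 5 rose and none fell (1 was lower at an unadjusted p, 0 by edgeR and DESeq2), beside 2.5% and 1.58%. The list medians were 0.42, 0.26 and 0.38 on the log2 scale. Dusp1, among the 5 that rose in MCD_EmKCs against Chow_EmKCs, is also on the isolation-response list. Sigirr, counted as risen in both MCD_MoKCs comparisons, had a median of 56.4 normalised reads in MCD_MoKCs, 2.12 in MCD_EmKCs and 2.08 in Chow_EmKCs. It thus met the filter mainly through MCD_MoKCs, the group where it was high, and its calls carry that limit. Tnip3, a partner of the ubiquitin-editing enzyme encoded by Tnfaip3, had a lowest, median and highest level of 545, 668 and 1114 normalised reads in MCD_MoKCs, 43.98, 152 and 282 in MCD_EmKCs and 0, 6.12 and 29.2 in Chow_EmKCs, with no overlap. Its log2 fold change was 6.88 (SE 0.58, adjusted p = 1.48e-09) for MCD_MoKCs against Chow_EmKCs and 4.44 (SE 0.60, adjusted p = 2.72e-05) for MCD_EmKCs against Chow_EmKCs. Tnfaip3 itself rose by 1.54 (SE 0.20, adjusted p = 3.35e-06) and 1.40 (SE 0.21, adjusted p = 1.36e-04) in these comparisons. Zc3h12a, which encodes an RNase that degrades cytokine mRNAs, rose in MCD_MoKCs against MCD_EmKCs by 1.56 (SE 0.34, adjusted p = 0.0022), though not among library numbers from 37. Nfkbia, which encodes an inhibitor of NF-kappaB, averaged 42405 ± 5187 normalised reads in MCD_MoKCs, 32437 ± 3341 in MCD_EmKCs and 23326 ± 3145 in Chow_EmKCs (SD, n = 7, 6 and 6), with a log2 fold change of 0.86 (SE 0.11, adjusted p = 1.35e-06) for MCD_MoKCs against Chow_EmKCs.

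The signalling chain between receptors and targets was read against the same shares of all tested genes, 8.68% higher and 8.08% lower in MCD_MoKCs against Chow_EmKCs, 5.64% and 4.9% in MCD_MoKCs against MCD_EmKCs, and 2.5% and 1.58% in MCD_EmKCs against Chow_EmKCs. Of 6 tested adaptors, none passed in MCD_EmKCs against Chow_EmKCs (limma, edgeR and DESeq2; 1 was lower at an unadjusted limma p under 0.05), 2 fell in MCD_MoKCs against MCD_EmKCs, and in MCD_MoKCs against Chow_EmKCs the same 2 fell and 1 rose. Scimp, which brings the kinase Lyn to Tlr4, fell in MCD_MoKCs to 766 ± 266 normalised reads (SD, n = 7), against 1476 ± 288 in MCD_EmKCs and 1687 ± 388 in Chow_EmKCs (n = 6 each), with log2 fold changes of -0.99 (SE 0.22, adjusted p = 0.0025) and -1.17 (SE 0.22, adjusted p = 2.48e-04). The other that fell was Sarm1, at 0 to 12.8 normalised reads in MCD_MoKCs, 0 to 422 in MCD_EmKCs and 9.94 to 189 in Chow_EmKCs. Ticam1, the adaptor of Tlr3 and of endosomal Tlr4, rose in MCD_MoKCs against Chow_EmKCs by 1.36 (SE 0.33, adjusted p = 0.0035), a call not reached among library numbers from 37 or with MCD_MoKCs 4 to 7 alone. The Sarm1 calls were not reached among numbers from 37 or with MCD_MoKCs 1 to 3 alone, nor was the Scimp call against MCD_EmKCs with MCD_MoKCs 1 to 3 alone. Of 18 tested kinases and ubiquitin ligases, 2 rose and 3 fell in MCD_MoKCs against Chow_EmKCs, 1 rose and 3 fell in MCD_MoKCs against MCD_EmKCs, and 1 rose in MCD_EmKCs against Chow_EmKCs; the numbers that rose are near the shares of all genes. Rnf31, a subunit of the linear ubiquitin ligase, had a log2 fold change of -1.11 (SE 0.16, adjusted p = 1.59e-05) in MCD_MoKCs against Chow_EmKCs.

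Of 10 tested transcription factors, 2 rose and 2 fell in MCD_MoKCs against Chow_EmKCs, 2 rose and 1 fell in MCD_MoKCs against MCD_EmKCs, and 1 rose and 1 fell in MCD_EmKCs against Chow_EmKCs. All tested genes gave 8.68% higher and 8.08% lower, 5.64% and 4.9%, and 2.5% and 1.58% in these comparisons. Atf3, a stress-induced repressor, rose by 1.12 (SE 0.14, adjusted p = 1.22e-06) in MCD_MoKCs against Chow_EmKCs, and Irf7, which drives interferon genes below Tlr7 and Tlr9, had a log2 fold change of -1.05 (SE 0.14, adjusted p = 3.74e-06). Atf3 is also on the isolation-response list.

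Of 9 tested genes of receptor folding and trafficking, 2 rose and 1 fell in MCD_MoKCs against Chow_EmKCs, 1 rose and 1 fell in MCD_MoKCs against MCD_EmKCs, and 1 rose in MCD_EmKCs against Chow_EmKCs. The 1 that fell in each of the first 2 comparisons stands beside 8.08% and 4.9% of all tested genes, and the numbers that rose beside 8.68%, 5.64% and 2.5%. Rab7b, a small GTPase that sends Tlr4 and Tlr9 towards lysosomes, averaged 2485 ± 593 normalised reads in MCD_MoKCs, 1157 ± 193 in MCD_EmKCs and 576 ± 195 in Chow_EmKCs (SD, n = 7, 6 and 6). Its log2 fold changes were 2.13 (SE 0.20, adjusted p = 1.43e-08) for MCD_MoKCs against Chow_EmKCs, 1.08 (SE 0.20, adjusted p = 5.86e-04) for MCD_MoKCs against MCD_EmKCs and 1.05 (SE 0.21, adjusted p = 0.0032) for MCD_EmKCs against Chow_EmKCs, the last not reached within either column-number set and the second not reached among library numbers from 37 (adjusted p = 0.0739). Unc93b1, the chaperone that carries nucleic-acid-sensing receptors to endosomes, had a log2 fold change of -0.52 (SE 0.13, adjusted p = 0.0039) in MCD_MoKCs against Chow_EmKCs, a call not reached within either column-number set.

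Of 7 tested co-receptors and ligand-handling genes, 1 rose and 1 fell in MCD_MoKCs against Chow_EmKCs, none passed in MCD_MoKCs against MCD_EmKCs (limma, edgeR and DESeq2; 1 was lower at an unadjusted limma p under 0.05), and 1 rose and 1 fell in MCD_EmKCs against Chow_EmKCs. With 7 genes, 1 in a direction is near the 8.68% of all genes higher and 8.08% lower in the first comparison, and the last had 2.5% and 1.58%. Cd36, a lipid scavenger receptor that also assists Tlr2 with Tlr6, averaged 8473 ± 2518 normalised reads in MCD_MoKCs, 6935 ± 1232 in MCD_EmKCs and 1122 ± 308 in Chow_EmKCs (SD, n = 7, 6 and 6). MCD_MoKCs against Chow_EmKCs gave a log2 fold change of 2.92 (SE 0.20, adjusted p = 1.48e-11) and MCD_EmKCs against Chow_EmKCs one of 2.66 (SE 0.20, adjusted p = 2.11e-09). Lbp, which loads lipopolysaccharide onto Cd14, was lower in MCD_MoKCs than in Chow_EmKCs, with a log2 fold change of -1.35 (SE 0.36, adjusted p = 0.0081), a call not reached among library numbers up to 33 or with MCD_MoKCs 1 to 3 alone. Lbp averaged 246 ± 175 normalised reads in MCD_MoKCs, 401 ± 71.9 in MCD_EmKCs and 535 ± 177 in Chow_EmKCs. Its other comparisons did not pass, at -0.98 (adjusted p = 0.0791) for MCD_MoKCs against MCD_EmKCs and -0.37 (adjusted p = 0.686) for MCD_EmKCs against Chow_EmKCs. Lbp is also a hepatocyte product, and the median hepatocyte marker sum was 46.4 RPM in MCD_MoKCs, 43.9 in MCD_EmKCs and 365 in Chow_EmKCs. The part of hepatocyte RNA in these levels was not tested.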

How the data were processed

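RNA was measured in 19 libraries. Per the submitters' processing notes, STAR, DESeq2 and build mm10 were used, and these sources give no versions, counting tool or strand setting. The deposited values are a signal, reads divided by 1 size factor per library, called normalised reads here. Dividing by the smallest step gave whole reads for 100% of values (tolerance 0.001), and 0 sample columns were left out. Exon lengths came from GENCODE on GRCm38.

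limma 3.58.1 in R 4.3.3, with trended and robust variance, was fitted to log2(value + 1) of all 19 libraries for 14875 genes at 10 or more in at least 6 libraries, and was tested on simulated data. Fold changes on the log2(value + 1) scale understate changes of low genes. Two-sided p-values were adjusted by the Benjamini-Hochberg method. edgeR 4.0.16 and DESeq2 1.42.0 on recovered reads, other scalings, pseudocounts, filters, designs and library subsets were alternatives. Members, gene lists and tests were chosen with earlier results of these data known. All 10 members are named, pathway genes with values are among the 3 smallest p of their list in at least 1 comparison (the other Toll-like receptors are given in full, outside this rule), and the 2 genes most like each of 3 members are named. Of the pathway lists, Tasl had no symbol match, and of 14 listed cell isolation response genes 12 had one.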

Additional observations from a re-analysis of the deposited data

Results flagged for a closer look

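In 30 sets of values (10 genes in 3 groups), the gap of the highest or lowest library to its neighbour was compared with Dixon's critical value at 95%, and 5 were above it, where chance gives about 1 in 20. That rate does not apply to the 3 sets of Tlr9, since most of their libraries are at or near 0 and a lone library with reads then passes by construction. Tlr3 was at 859 normalised reads in MCD_EmKCs 1, the other MCD_EmKCs libraries at 202 to 356. Cd14 was at 51419 normalised reads in MCD_EmKCs 3, above the other 5 libraries of its group. Tlr9 was at 98.9 normalised reads in MCD_MoKCs 7, at 5.84 in MCD_EmKCs 5 and at 23.0 in Chow_EmKCs 2, in groups whose other libraries were at or close to 0.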

How the results depend on the processing

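Precision is limited by 6 or 7 libraries a group, and recovered reads came from amplified cDNA without molecular identifiers. Tlr1 and Cd14 in MCD_MoKCs against Chow_EmKCs kept their direction and calls in all 16 alternatives and 19 fits without 1 library. The count of called members in MCD_EmKCs against Chow_EmKCs, 1 in the reported fit, was 0 with edgeR, upper-quartile scaling, no filter on low values, only the 2 groups, library numbers up to 33 or from 37, and limma without trend and robust variance, and 0 to 1 without single libraries. In MCD_MoKCs against MCD_EmKCs it was 2 with only the 2 groups (Cd14 and Tlr1), 0 with library numbers up to 33 or from 37 or with MCD_MoKCs 1 to 3, and 1 to 2 without single libraries. The subsets hold fewer samples; other causes were not tested.

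Signs turned for uncalled changes, given as log2 fold changes. In MCD_MoKCs against MCD_EmKCs, Ly96 was -0.065 with the library number set as covariate, -0.00033 with numbers up to 33, -0.18 from 37 and -0.52 with MCD_MoKCs 4 to 7, Tlr8 was -0.043 with edgeR, -0.021 with DESeq2, -0.0017 with the replicate block and -0.19 from number 37, and Tlr3 was 0.26 from 37. In MCD_MoKCs against Chow_EmKCs, Ly96 was 0.40 with MCD_MoKCs 1 to 3, Myd88 -0.0018 up to number 33, and Tlr3 0.16, Tlr4 0.10 and Tlr8 0.12 from 37. In MCD_EmKCs against Chow_EmKCs, Myd88 was -0.029 with upper-quartile scaling and -0.080 up to number 33, Tlr3 0.075 with edgeR and 0.083 with DESeq2, and Tlr2 0.14, Tlr4 0.11 and Tlr8 0.31 from 37. Without single libraries, the range was -0.13 to 0.18 for Ly96, -0.15 to 0.0097 for Tlr4 and -0.15 to 0.26 for Tlr8 in MCD_MoKCs against MCD_EmKCs, and -0.077 to 0.085 for Myd88, -0.34 to 0.079 for Tlr3 and -0.21 to 0.038 for Tlr4 in MCD_EmKCs against Chow_EmKCs. Among pathway genes, whose alternatives were chosen after seeing the data, Dusp1 in MCD_MoKCs against MCD_EmKCs turned to 0.0055 from number 37. Their other fits gave 1191 results with the same call and 156 weaker, and 1552 and 101 without single libraries. Over all genes, 179 to 904 were called in MCD_EmKCs against Chow_EmKCs, 565 to 1846 in MCD_MoKCs against MCD_EmKCs and 1257 to 2588 in MCD_MoKCs against Chow_EmKCs.

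The labels do not say whether replicate numbers pair the samples. Deviations of 18 same-numbered pairs had r of -0.07 to 0.08, and the best match was the own number in 7. These values cannot decide whether samples were paired. With the replicate block, 608, 1658 and 2474 genes were called in MCD_EmKCs against Chow_EmKCs, MCD_MoKCs against MCD_EmKCs and MCD_MoKCs against Chow_EmKCs, and the members called were 1, 1 and 3, Tlr3 (-1.37, adjusted p = 0.0341) being added.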
